A study of Mus musculus with 12 samples.

Results

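The respiratory chain was examined in mouse inner medullary collecting duct (mIMCD3) cells through 108 genes, chosen by symbol from the 47642 gene rows of an RNA-seq table. Of these, 95 are encoded in the nucleus: the Nduf genes of complex I and its assembly, Sdha to Sdhd of complex II, the Uqcr genes, Cyc1 and Cycs around complex III, the Cox4 to Cox8 genes of complex IV and the Atp5 genes of the ATP synthase (complex V). The other 13 are the protein-coding genes of the mitochondrial genome. Ndufa4 and Ndufa4l2, named after complex I, are placed with complex IV, where the Ndufa4 protein sits. A symbol is no proof of a role: Cox7a2l acts in joining complexes rather than in the enzyme itself.

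The inner mitochondrial membrane carries complexes I to IV, which pass electrons from NADH and succinate through ubiquinone and cytochrome c to oxygen. Complexes I, III and IV pump protons, and complex V, in the same membrane, uses the proton gradient to make ATP. Complexes I, III, IV and V are built from subunits of both genomes, while all subunits of complex II are nuclear. The mitochondrial genes are transcribed as long precursors by a polymerase of their own, and the nuclear genes are each transcribed from a promoter of their own, so that levels of the groups can move apart. Kidney tubule cells use this chain to power salt transport.

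The 12 libraries came from 3 genotypes with 4 culture dishes each: wild-type cells (Wt), cells in which CRISPR removed Pkd1 on both alleles (Pkd1-/-), and cells in which TALENs removed an inner stretch of Pkd2 (Pkd2-/-). Pkd1 and Pkd2 encode the polycystins lost in autosomal dominant polycystic kidney disease. All cells descend from a line immortalized by the SV40 early region, and each mutant was a single clone, so that genotype and clone cannot be told apart. Per genotype, 6 dishes were grown without drug treatment, RNA was taken 4 days after full confluency, and 4 dishes were sequenced by RNA purity. The dishes of a genotype are cultures of the same line, and p-values measure the spread between such dishes. The questions were how each mutant differs from Wt, and how the mutants differ from each other.

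Values are normalized read counts: reads per gene, scaled by the authors to make libraries comparable and rounded. Fold changes are on the log2(count + 1) scale, with the standard error (SE) of limma's fit over all 12 libraries. A gene is called where limma's p-value, adjusted (Benjamini-Hochberg) over the 18552 genes whose mean reached 1, is under 0.05. Of the nuclear members 90 passed that limit, and 5 did not: Cox4i2, Cox6b2, Cox7b2, Cox8b and Cox8c, subunit forms used in other tissues. All 13 mitochondrial genes passed it.

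Each library summed to between 25966273 and 28027792 normalized counts, and the numbers of reads behind them are not known. Pkd1 had 682, 688, 883 and 876 normalized counts in the Wt dishes and 40, 49, 48 and 30 in the Pkd1-/- dishes. Pkd2 had 4190, 3438, 3790 and 4467 in Wt and 3855, 3921, 4034 and 4135 in Pkd2-/- dishes, a count that includes the exons outside the deletion and so checks nothing. Of 20 markers of kidney epithelium and collecting duct, 15 had a mean of at least 10, among them Epcam, Cdh1 and Cdh16, with means of 22380, 13700 and 2016 in Wt, while Aqp2, Aqp4 and Avpr2, which define the water-reabsorbing principal cell, were under 1. Some differed widely between genotypes: Krt19 had means of 4472, 1329 and 1409 in Wt, Pkd1-/- and Pkd2-/- cells, Scnn1g 927.8, 302.8 and 254.8, and Gata3 226.8, 48.5 and 354.2. Lists of intercalated cell, endothelial and leukocyte markers summed to at most 9 normalized counts in every library. The 4 proximal tubule markers summed to 480 to 557 in Wt, 33 to 71 in Pkd1-/- and 744 to 1222 in Pkd2-/- libraries, nearly all from the endocytic receptor gene Lrp2; Slc34a1 was at 0 in all genotypes. Of the 4 fibroblast markers, which summed to 29 to 55 in Wt, 89 to 101 in Pkd1-/- and 15 to 97 in Pkd2-/- libraries, Col3a1 had means of 4.75, 66.25 and 14.5. The part of these differences in the results was not tested.

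The mitochondrial genes fell into 2 sets by level, and 5 of the 6 genes of the low set, all but mt-Atp8, have near-identical annotated copies in the nuclear genome. A stretch of mouse chromosome 1 holds a copy of part of the mitochondrial genome. The 2 lines below give the coding sequence of mt-Nd4l (complex I) from position 9877 to 10173 of the mitochondrial genome, plus strand, and the annotated copy Gm10222 at chr1:24612407-24612700, minus strand, both of build GRCm38 and from the GENCODE M21 transcripts. The annotated copy does not include the 3 last bases of mt-Nd4l. All 294 bases that the pair shares are the same.
mt-Nd4l: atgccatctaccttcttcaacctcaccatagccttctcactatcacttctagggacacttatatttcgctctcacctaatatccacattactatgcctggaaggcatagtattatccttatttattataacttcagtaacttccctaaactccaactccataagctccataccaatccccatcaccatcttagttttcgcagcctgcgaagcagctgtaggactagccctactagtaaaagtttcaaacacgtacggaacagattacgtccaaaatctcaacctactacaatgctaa
Gm10222: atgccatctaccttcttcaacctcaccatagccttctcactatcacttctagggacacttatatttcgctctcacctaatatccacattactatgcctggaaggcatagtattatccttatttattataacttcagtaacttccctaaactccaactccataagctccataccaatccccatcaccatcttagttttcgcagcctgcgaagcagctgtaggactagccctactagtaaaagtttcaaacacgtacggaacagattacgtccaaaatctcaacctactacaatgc

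The same held for 4 more genes of that stretch: Gm28661 matched mt-Co2 over 681 bases, Gm10925 matched mt-Atp6 over 678 and Gm28437 matched mt-Co3 over 783 without a difference, and Gm28438 matched mt-Nd3 over 345 bases with the single substitution T3C, counted from the first base of the coding sequence. Reads from these genes and from their copies can therefore not be told apart by sequence, and how reads matching both were counted is not given in the sources used here. In windows of 50 bases, between 98.0% and 100% of mt-Co2, mt-Atp6, mt-Co3, mt-Nd3 and mt-Nd4l matched a transcript of another gene. For mt-Cytb, mt-Nd1 and mt-Nd6 the share was 0%, for mt-Nd4 62.2% and for mt-Co1 51.1%. Windows were compared with annotated transcripts only, so that stretches of the chromosome 1 copy between annotated genes were not searched.

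**Figure D1:**
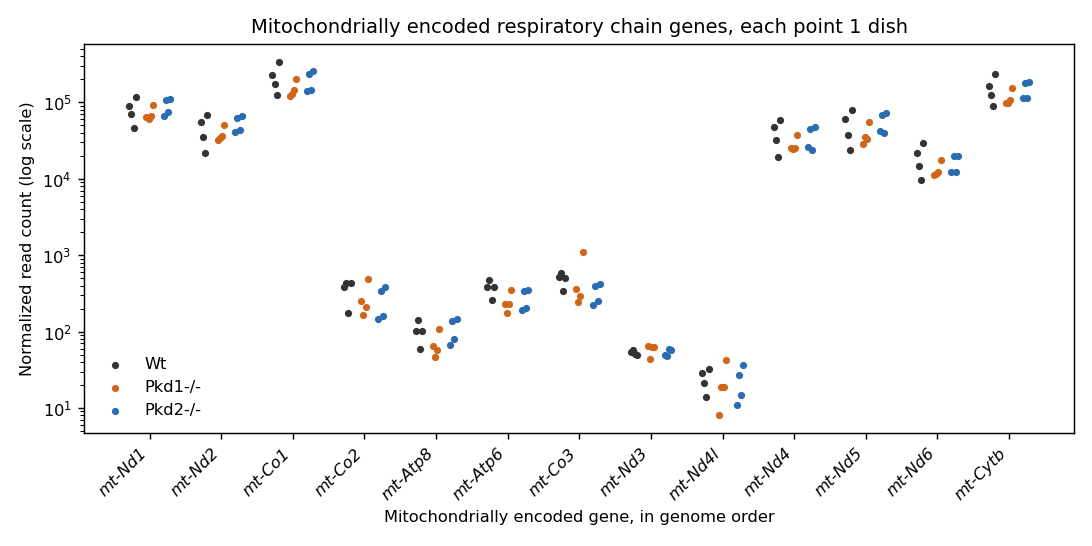
Normalized read counts of the 13 mitochondrially encoded genes (log scale), in genome order from left to right, with each point 1 dish and colors for the genotypes. The 7 genes of the high set lie at 9763 or above, while mt-Co2 to mt-Nd4l, 6 genes in a row, lie between 8 and 1107.

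Per kilobase of transcript, the 7 genes of the high set (mt-Nd1, mt-Nd2, mt-Co1, mt-Nd4, mt-Nd5, mt-Nd6 and mt-Cytb) had mean Wt levels of 27660 to 140100 normalized counts. The 6 genes of the low set, which are contiguous on the genome, had 80.8 to 619 per kilobase. For comparison, the highest nuclear member was Atp5b, the catalytic beta subunit of the ATP synthase, with 24980 per kilobase, followed by Cox4i1 with 21010. In Wt the high set held 2.28% of all normalized counts on average and the low set 0.00528%, so that a sum over the 13 genes describes the high set.

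mt-Cytb, the only mitochondrial subunit of complex III and free of shared windows, had 162167, 124105, 88471 and 233446 normalized counts in the Wt dishes. In Pkd1-/- dishes it had 96919, 99774, 106413 and 154313, and in Pkd2-/- dishes 113008, 178028, 113981 and 185540. The Wt dishes spanned the values of both mutants. The log2 fold change was −0.35 (SE 0.23, limma adjusted p = 0.303) in Pkd1-/- and 0.01 (SE 0.23, adjusted p = 0.984) in Pkd2-/- cells.

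mt-Co1, the catalytic subunit of complex IV, ran in parallel, with 227773, 172867, 123871 and 341606 in Wt dishes. It had 122733, 130433, 145464 and 205396 in Pkd1-/- and 143230, 232726, 147282 and 255545 in Pkd2-/- dishes. Again no genotype stood apart, with log2 fold changes of −0.45 (limma adjusted p = 0.197) and −0.10 (adjusted p = 0.779). Across the 12 libraries the 7 genes of the high set had pairwise correlations of 0.89 to 0.99 (Pearson's r of log2 values, 21 pairs, a description of genes measured in the same libraries).

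The other genes of the high set followed the same dish order in Wt, highest in dish 4 and lowest in dish 3. Their lowest to highest normalized counts over the 12 libraries were 45871 to 118604 for mt-Nd1, 21879 to 67582 for mt-Nd2, 19531 to 59257 for mt-Nd4, 23554 to 80627 for mt-Nd5 and 9763 to 29650 for mt-Nd6, all subunits of complex I. In the low set mt-Atp8, a small subunit of complex V, shared no window with an annotated transcript of another gene. It had 101, 142, 60 and 101 in Wt, 64, 47, 57 and 108 in Pkd1-/- and 67, 137, 81 and 147 in Pkd2-/- dishes. mt-Nd3 had 54, 58, 51 and 50, 64, 44, 62 and 63, and 50, 48, 60 and 58 in the same order, without the dish pattern of the high set.

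Between dishes of the same genotype the mitochondrial genes varied more than the nuclear members. The median coefficient of variation over 4 dishes was 43.7% for the high set in Wt, 23.3% in Pkd1-/- and 28.0% in Pkd2-/- cells. For nuclear members whose mean reached 10 it was 6.91%, 7.61% and 8.77%, near the 7.45%, 6.60% and 7.95% of all 13703 such genes. In Wt, mt-Nd5 differed 3.42-fold between its lowest and highest dish.

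The 13 genes together held 2.53%, 1.87%, 1.29% and 3.47% of all normalized counts in the Wt dishes (2.29 ± 0.937, SD, n = 4). They held 1.46%, 1.52%, 1.62% and 2.35% in Pkd1-/- (1.74 ± 0.412, SD, n = 4) and 1.63%, 2.57%, 1.67% and 2.71% in Pkd2-/- dishes (2.15 ± 0.575, SD, n = 4). The 3 ranges overlapped. The 95 nuclear members held 1.35 ± 0.0848%, 1.41 ± 0.0842% and 1.25 ± 0.102% (SD, n = 4 each) in Wt, Pkd1-/- and Pkd2-/- cells, and these ranges overlapped as well. In all 3 genotypes dish 4 had the highest mitochondrial share together with the lowest share of nuclear members and the lowest share of cytosolic ribosomal protein genes. Whether an equal number marks a shared handling is not stated in the labels.

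**Figure D2:**
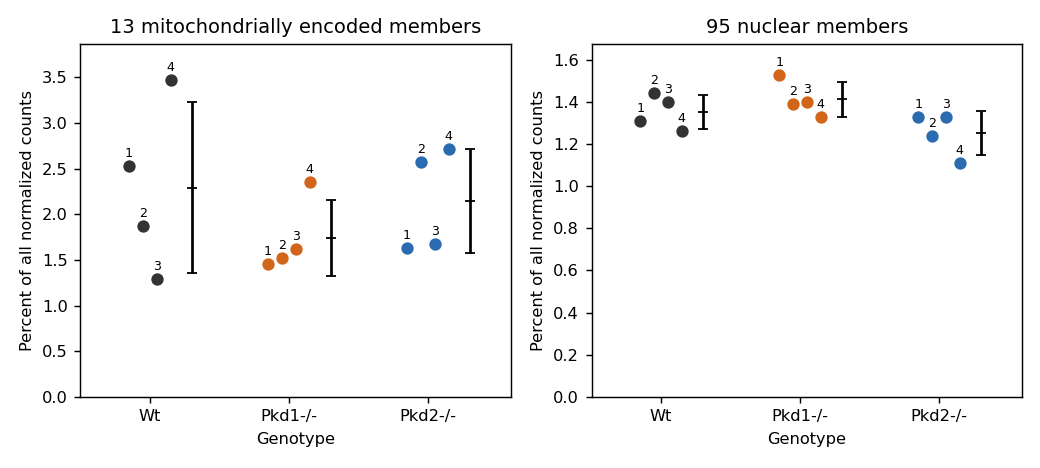
Percent of all normalized counts held by the 13 mitochondrially encoded members (left) and the 95 nuclear members (right), each point 1 dish with its number, and the mean with its SD (bars, n = 4) beside it. The mitochondrial share runs from 1.29% to 3.47% within Wt and the genotypes overlap, with dish 4 highest on the left and lowest on the right in each genotype.

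Of the 13 mitochondrial genes, mt-Atp6 was the sole call against Wt. This subunit of the proton channel of complex V had 387, 480, 256 and 389 normalized counts in Wt and 229, 175, 228 and 348 in Pkd1-/- dishes, which overlap. It was lower in Pkd1-/- cells by a log2 fold change of −0.63 (SE 0.22, limma adjusted p = 0.0432), and 99.5% of its windows are shared with the copy. In Pkd1-/- cells no mitochondrial gene was called higher (0 at an unadjusted p under 0.05). In Pkd2-/- cells none was called against Wt (at an unadjusted p under 0.05 only mt-Atp6, lower), and none against Pkd1-/- cells (unadjusted only mt-Atp8, higher). These were 1, 0 and 0 of 13 genes, where 27.1%, 42.3% and 46.3% of all genes were called. The call in Pkd1-/- cells rests on single dishes: without Wt dish 3 there were 4 lower genes and without Pkd1-/- dish 4 there were 3, while leaving out Wt dish 1, 2 or 4 or Pkd1-/- dish 1, 2 or 3 gave 0.

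The copies on chromosome 1 had a pattern of their own. Gm10925, the copy of mt-Atp6, had 2071 normalized counts in Wt dish 2 and 2178 in Pkd1-/- dish 4, and 368 to 818 in the other 10 libraries. Gm28437, the copy of mt-Co3, had 1878 and 2135 in the same dishes and 351 to 726 elsewhere. In Pkd1-/- dish 4 mt-Co3 itself, a core subunit of complex IV, had 1107 normalized counts, against 242 to 356 in the other Pkd1-/- dishes.

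In Pkd1-/- cells, few nuclear members differed from Wt, and the changes were small. Atp5j2 (the f subunit of the membrane part of the ATP synthase), Cox6a1 (the broadly expressed VIa subunit of complex IV) and the electron carrier genes Cyc1 and Cycs were among 9 that rose, and Atp5o and Atp5j, both of the stalk that holds the ATP synthase together, were among 5 that fell. These were 14 of 90 tested nuclear members, or 15.6%, where 27.1% of all 18552 genes were called. Of all genes 13.6% rose and 13.5% fell, and of the nuclear members 10% rose and 5.56% fell. The median log2 fold change of the nuclear members was 0.07, against 0.01 for all genes. None reached the study's added limit of an absolute log2 fold change of 1, which 6.24% of all genes passed. Since whole dishes were measured, fewer cells of a type and less RNA per cell cannot be told apart, here and in each result that follows. Without Pkd2-/- dish 4, which enters through the shared spread, 14 rose. The number that fell was 8 without Pkd1-/- dish 1, 3 without Wt dish 2 or without Pkd1-/- dish 2 or 3, and 2 without Wt dish 3 or Pkd1-/- dish 4.

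Atp5j2 (chr5:145183698-145192062) had the smallest adjusted p among the nuclear members that rose. It had 2817, 3758, 3075 and 2706 normalized counts in Wt dishes, 5095, 4454, 4498 and 5112 in Pkd1-/- dishes, and 2513, 2408, 2495 and 1958 in Pkd2-/- dishes. All Pkd1-/- dishes lay above, and all Pkd2-/- dishes below, the Wt range. The log2 fold change against Wt was 0.64 (SE 0.09, limma adjusted p = 2.95e-05) in Pkd1-/- and −0.39 (SE 0.09, adjusted p = 0.00188) in Pkd2-/- cells, and between the mutants −1.03 (adjusted p = 2.57e-08). In all 25 alternative settings these 3 calls and directions held.

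Cox6a1 (chr5:115345642-115348981) had 8284, 9494, 8995 and 8258 normalized counts in Wt, 12245, 11316, 11230 and 10572 in Pkd1-/- and 8252, 7746, 8440 and 6706 in Pkd2-/- dishes. Its Pkd1-/- values were all above Wt, with a log2 fold change of 0.37 (SE 0.07, limma adjusted p = 3.22e-04), while its Pkd2-/- values overlapped Wt at −0.17 (adjusted p = 0.0477), a call lost in 11 of 25 alternative settings. The 40 other genes nearest to Cox6a1, and likewise the 40 nearest to Atp5j2, were at a median of 0.265 (log2 fold change) in Pkd1-/- cells, although the 920 other genes of chromosome 5 had one of −0.18. The part of the surroundings in the rise of either gene was not tested.

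The promoters of these genes differ in motif content. NRF1 and the ETS factor GABP are known activators of many respiratory chain promoters. The 250 bases before the start of transcription were taken from RefSeq promoters of GRCm38.p6, found for 75 of the 95 nuclear members, and searched on both strands for the NRF1 core (GCGCA, then any base, then GCGC) and the ETS core CCGGAAG, which share no base where both occur below. The NRF1 core was found in 13 of 75 (17.3%), against 5.54% of 16386 promoters of protein-coding genes in the table, and the ETS core in 13 of 75 (17.3%), against 9.56%. Capitals mark the matches in Cox6a1 (chr5:115348959-115349208), Atp5k (chr5:108434400-108434649) and Uqcrh (chr4:116075071-116075320), all on the minus strand, shown because their genes stand at both ends of the changes below. Cox7c (chr13:86046796-86047045, minus strand), the gene with the largest fall, held neither core.
Cox6a1: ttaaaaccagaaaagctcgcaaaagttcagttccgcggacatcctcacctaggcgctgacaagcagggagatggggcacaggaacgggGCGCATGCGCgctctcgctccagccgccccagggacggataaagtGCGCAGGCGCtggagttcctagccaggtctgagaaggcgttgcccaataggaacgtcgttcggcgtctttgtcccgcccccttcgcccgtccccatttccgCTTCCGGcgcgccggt
Atp5k: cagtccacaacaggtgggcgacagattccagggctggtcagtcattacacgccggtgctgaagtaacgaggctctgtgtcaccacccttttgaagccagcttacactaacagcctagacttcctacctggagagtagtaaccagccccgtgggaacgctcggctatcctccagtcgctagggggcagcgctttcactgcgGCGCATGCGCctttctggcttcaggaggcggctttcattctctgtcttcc
Uqcrh: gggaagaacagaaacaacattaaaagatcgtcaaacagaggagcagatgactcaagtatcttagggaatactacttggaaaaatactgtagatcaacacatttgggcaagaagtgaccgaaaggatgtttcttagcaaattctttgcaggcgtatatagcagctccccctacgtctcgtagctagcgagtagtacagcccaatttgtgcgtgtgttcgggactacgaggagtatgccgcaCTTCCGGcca
Cox7c: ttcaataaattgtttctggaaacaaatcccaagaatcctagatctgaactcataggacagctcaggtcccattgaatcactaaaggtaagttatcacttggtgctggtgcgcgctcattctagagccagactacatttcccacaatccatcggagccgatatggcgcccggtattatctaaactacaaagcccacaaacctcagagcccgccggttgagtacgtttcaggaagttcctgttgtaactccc

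Cox6a1, with 2 NRF1 cores and an ETS core, was higher in Pkd1-/- cells, while Atp5k, with an NRF1 core, and Uqcrh, with an ETS core, were lower in Pkd2-/- cells. Atp5j2, Cox7a1 and Atp5c1, which changed as well, held neither core in these 250 bases, although the Atp5j2 promoter given by RefSeq starts 521 bases from the annotated gene start. Ndufa4 and Atp5d, which fell in Pkd2-/- cells, held neither core. The Atp5d promoter given by RefSeq starts 3643 bases from the annotated gene start. Sdha held 3 NRF1 cores and was called against Wt in neither mutant. A relation between cores and changes was not tested.

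Cox7a1, the heart and muscle form of complex IV subunit VIIa, was a low-level gene with 33, 30, 28 and 37 normalized counts in Wt, 54, 75, 50 and 65 in Pkd1-/- and 43, 36, 44 and 39 in Pkd2-/- dishes. The Pkd1-/- dishes lay above all others, with a log2 fold change of 0.90 (SE 0.18, limma adjusted p = 9.24e-04) against Wt. Its broadly expressed counterpart Cox7a2 had a mean level of 3937 per kilobase in Wt cells, against 81.4 for Cox7a1. Cox7a2 had 2525, 2721, 2684 and 2449 in Wt and 3300, 2829, 2969 and 2784 in Pkd1-/- dishes, which do not overlap, at a log2 fold change of 0.19 (adjusted p = 0.0501).

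Cycs, somatic cytochrome c, had 609, 607, 656 and 589 normalized counts in Wt, 842, 762, 813 and 719 in Pkd1-/- and 715, 772, 754 and 636 in Pkd2-/- dishes. It rose by a log2 fold change of 0.35 (SE 0.07, limma adjusted p = 0.00103) in Pkd1-/- and 0.22 (SE 0.07, adjusted p = 0.017) in Pkd2-/- cells, where 28.5% of its windows are shared with other transcripts. Cyc1, cytochrome c1 of complex III, had 5058, 6003, 5637 and 5368 in Wt and 7023, 6473, 6531 and 6349 in Pkd1-/- dishes without overlap (0.26, adjusted p = 0.00134), and in Pkd2-/- cells 0.10 (adjusted p = 0.142).

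Ndufv1 and Ndufs8, of the NADH-oxidizing and iron-sulfur arm of complex I, lie close together on chromosome 19. Ndufv1 had 6986, 7981, 7870 and 6915 normalized counts in Wt, 9856, 9119, 9334 and 9251 in Pkd1-/- and 9339, 8237, 9430 and 7793 in Pkd2-/- dishes. It rose by 0.34 (SE 0.06, limma adjusted p = 4.47e-04) and 0.22 (SE 0.06, adjusted p = 0.00755), and Ndufs8 by 0.29 (adjusted p = 0.00158) and 0.23 (adjusted p = 0.00536). The 478 other genes of chromosome 19 had medians of 0.17 and 0.28. With each chromosome centred on its own median, an alternative added after seeing the data, Ndufv1 was at −0.04 and Ndufs8 at −0.03 in Pkd2-/- cells, neither called, and Ndufs8 at 0.12 in Pkd1-/- cells (adjusted p = 0.127). Cox8a, the third member of chromosome 19 that rose in Pkd1-/- cells (0.24, adjusted p = 0.0105), was at 0.07 after it. In Pkd1-/- cells Ndufv1 was called higher in all 25 alternative settings, this centring among them, at 0.17 or more (limma adjusted p at most 0.0315).

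The nuclear members that fell in Pkd1-/- cells included Atp5s, a factor coupled to the ATP synthase, with 367, 337, 407 and 319 normalized counts in Wt and 272, 261, 301 and 264 in Pkd1-/- dishes (−0.38, SE 0.09, limma adjusted p = 0.00309). Atp5o (the oligomycin sensitivity subunit) had 8060, 9243, 8465 and 7792 in Wt and 7401, 6650, 6872 and 6357 in Pkd1-/- dishes (−0.30, SE 0.07, adjusted p = 0.002). Neither pair of groups overlapped. Atp5j, the coupling factor 6 subunit, fell by 0.18 on the log2 scale (adjusted p = 0.0147); with Atp5o it lies on chromosome 16, in neighbourhoods with medians of −0.23 around Atp5j and −0.18 around Atp5o, it overlaps Gabpa on the other strand, and centring by chromosome left it at −0.15 (adjusted p = 0.0624). Of Atp5o, 50.3% of the windows occur in other transcripts.

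**Figure D3:**
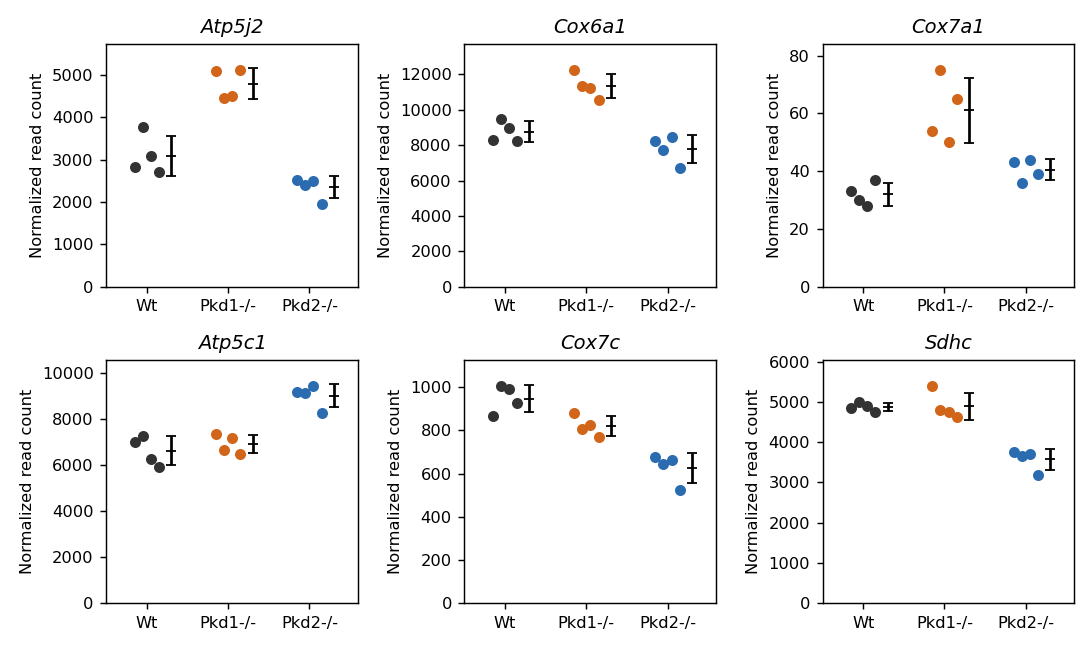
Normalized read counts (axes from 0) of Atp5j2, Cox6a1, Cox7a1, Atp5c1, Cox7c and Sdhc by genotype, each point 1 dish, with the mean and SD (bars, n = 4) beside the points. Atp5j2, Cox6a1 and Cox7a1 stand highest in Pkd1-/- dishes, Atp5c1 stands highest and Cox7c and Sdhc stand lowest in Pkd2-/- dishes.

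In Pkd2-/- cells 51 nuclear members differed from Wt, and most of these were lower. The 39 that fell were led by Cox7c, Atp5k, Sdhc, Ndufa4, Atp5d, Cox6c and Uqcrh, while 12 rose, among them Atp5c1 and Atp5g3. Of 90 tested nuclear members 43.3% fell and 13.3% rose, where 22.3% of all genes fell and 20% rose (42.3% called in all). The median log2 fold change was −0.16, against −0.01 over all genes. Cox6a2, a low gene, was alone past an absolute log2 fold change of 1 (9.62% of all genes). It reached the mean limit for the test only through the Pkd2-/- dishes. The groups did not overlap for 34 of the 39 that fell, but the matching share over all genes that fell is not given. Without Wt dish 2, or without Pkd2-/- dish 4, 24 fell in place of 39. Scaling all libraries to the same nuclear-encoded total, or to the same total, gave 50 that fell and 3 that rose. Either scaling also moved the median log2 fold change of all genes from −0.01 to −0.07.

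**Figure D4:**
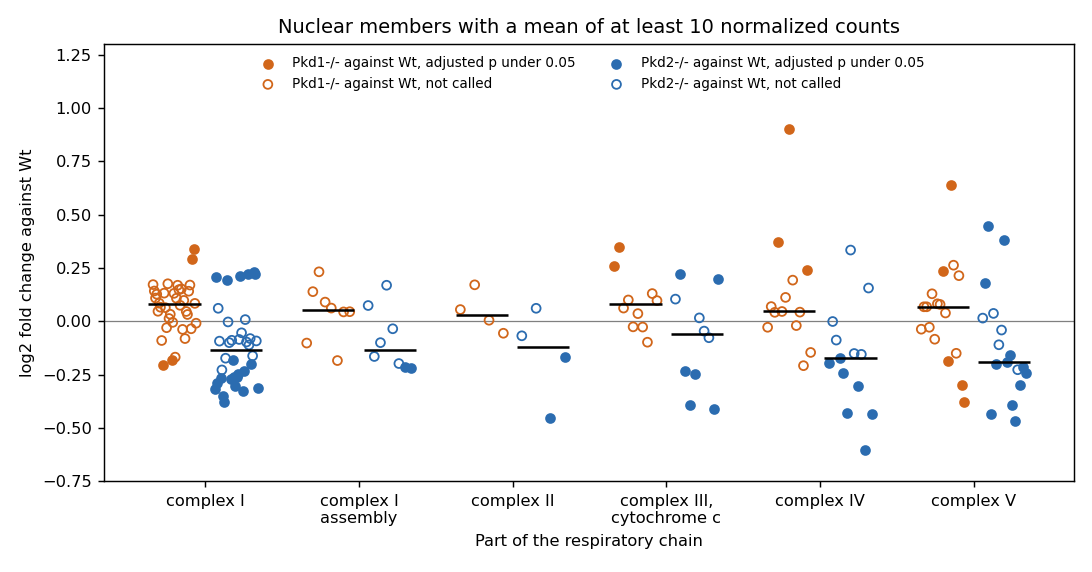
log2 fold change against Wt of the nuclear members whose mean reached 10 normalized counts, by part of the respiratory chain, in Pkd1-/- (orange) and Pkd2-/- cells (blue). Each point is 1 gene, filled where called, and black lines are medians, which lie above 0 in Pkd1-/- and below 0 in Pkd2-/- cells for all 6 parts.

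Complex by complex, 15 of 36 subunits of complex I fell in Pkd2-/- cells and 6 rose, 4 of 10 of complex III and cytochrome c fell and 2 rose, 7 of 15 tested of complex IV fell and 1 rose, and 9 of 17 of complex V fell and 3 rose. As shares, 41.7%, 40%, 46.7% and 52.9% fell and 16.7%, 20%, 6.67% and 17.6% rose, against 22.3% and 20% of all genes. The medians were −0.14, −0.06, −0.16 and −0.19. In Pkd1-/- cells the same parts had medians of 0.08, 0.08, 0.05 and 0.07. Of 8 complex I assembly factors named Ndufaf, Ndufaf7 and Ndufaf8 fell in Pkd2-/- cells (−0.22 each, limma adjusted p = 0.042 and 0.0343).

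Cox7c, a small subunit of complex IV, had 869, 1005, 990 and 926 normalized counts in Wt, 881, 805, 823 and 771 in Pkd1-/- and 676, 642, 662 and 522 in Pkd2-/- dishes. All Pkd2-/- dishes were below all others. It fell by 0.60 on the log2 scale (SE 0.08, limma adjusted p = 4.55e-06), the largest fall among the nuclear members, and 53.0% of its windows occur in other transcripts. Cox6c, another small subunit of complex IV, had 4611, 5081, 4969 and 4581 in Wt and 3629, 3702, 3741 and 3223 in Pkd2-/- dishes (−0.43, SE 0.06, adjusted p = 1.66e-05); it overlaps Vps13b on the other strand. Ndufa4, first assigned to complex I, had 6575, 6629, 6506 and 6469 in Wt and 5230, 5100, 5001 and 4100 in Pkd2-/- dishes (−0.44, SE 0.07, adjusted p = 8.56e-05). Each of these 3 subunits was lower in every Pkd2-/- dish than in any Wt dish.

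Complex II, which has only nuclear subunits, changed unevenly. Sdhc, which anchors it in the membrane, had 4854, 4996, 4899 and 4746 normalized counts in Wt, 5392, 4806, 4762 and 4635 in Pkd1-/- and 3746, 3645, 3711 and 3184 in Pkd2-/- dishes, with a log2 fold change of −0.45 (SE 0.06, limma adjusted p = 2.78e-06) in Pkd2-/- cells. The other anchor, Sdhd, fell less, by 0.17 (adjusted p = 0.0168), a call lost in 5 of 25 alternative settings, among them without Wt dish 2 and without Pkd2-/- dish 2 or 4. The catalytic flavoprotein Sdha stood at −0.07 (adjusted p = 0.193) and the iron-sulfur subunit Sdhb at 0.06 (adjusted p = 0.497). The principal transcript of Sdhc is long, with 3171 bases, and its 40 nearest genes had a median of −0.11.

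In complex V, subunits of the same machine went opposite ways. Atp5c1, the gamma subunit that turns inside the catalytic head, had 7034, 7269, 6293 and 5918 normalized counts in Wt, 7342, 6686, 7207 and 6505 in Pkd1-/- and 9211, 9153, 9445 and 8298 in Pkd2-/- dishes. All Pkd2-/- dishes were above all others (0.45, SE 0.06, limma adjusted p = 1.19e-05). Atp5d, the delta subunit that sits beside gamma, had 6888, 8572, 7804 and 6942 in Wt and 5892, 5343, 5881 and 5176 in Pkd2-/- dishes (−0.43, SE 0.07, adjusted p = 2.96e-05), and overlaps Cbarp on the other strand. Atp5k, the e subunit that helps pair the enzyme, had 1121, 1324, 1510 and 1199 in Wt and 1021, 1028, 985 and 708 in Pkd2-/- dishes (−0.47, SE 0.12, adjusted p = 0.0035).

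Atp5g3, which encodes the ring-forming c subunit, had 8091, 7788, 6914 and 6652 normalized counts in Wt, 9633, 8364, 8622 and 8065 in Pkd1-/- and 9899, 9765, 10046 and 8559 in Pkd2-/- dishes. It rose in both mutants (0.24, limma adjusted p = 0.0145, and 0.38, adjusted p = 1.8e-04), where the call in Pkd1-/- cells was lost in 4 of 25 alternative settings, among them without Wt dish 3 or 4 and without Pkd1-/- dish 1. The other genes for the same protein, Atp5g1 and Atp5g2, were at −0.11 and −0.04 in Pkd2-/- cells, neither called, with 11.6% and 87.4% of their windows in other transcripts. Atp5b rose by 0.18 (SE 0.05, adjusted p = 0.00784) without overlap, a call lost with libraries scaled to equal totals (adjusted p up to 0.12), and the alpha subunit Atp5a1 stood at 0.02 (adjusted p = 0.844).

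Of the 12 nuclear members that rose in Pkd2-/- cells, 7 lie on chromosomes 2 or 19: Atp5c1, Atp5g3, Ndufa8 and Ndufs3 on chromosome 2 and Ndufb8, Ndufs8 and Ndufv1 on chromosome 19. The 1051 other genes of chromosome 2 were at a median of 0.33 (log2 fold change), and the 478 of chromosome 19 one of 0.28, while no other chromosome with members exceeded 0.04. Of the 11 members on these chromosomes 7 rose and none fell, and of the 79 elsewhere 5 rose and 39 fell. As shares, 63.6% rose and 0% fell on chromosomes 2 and 19, and 6.33% rose and 49.4% fell elsewhere. Of all genes 20% rose and 22.3% fell, and their shares by chromosome are not given. With each chromosome centred on its median, Atp5c1 stood at 0.13 (limma adjusted p = 0.126) and Atp5g3 at 0.06 (adjusted p = 0.551), and in all 7 nuclear members rose and 31 fell. The study reports normal ploidy for all lines from their DNA content, while the copy number of single chromosomes was not measured.

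Ndufa10 (0.21, limma adjusted p = 0.00927), Cycs, Uqcrq, Atp5b and Cox6a2 were the 5 risers on other chromosomes. With libraries scaled to equal totals only Cox6a2 of these was still called, and without Pkd2-/- dish 2 Cycs was not. Cox6a2, the muscle form of complex IV subunit VIa, had 0, 0, 1 and 3 normalized counts in Wt and 1, 1, 0 and 0 in Pkd1-/- dishes. In Pkd2-/- dishes it had 19, 14, 15 and 9. Cox6a2 reached the mean limit of 1 only through the Pkd2-/- dishes, so that its call adds no support. No fold change is given, since it would depend on the added pseudocount. The broad form Cox6a1 had at least 6706 in the same dishes.

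Among other tissue-specific forms, Cox4i2 had at most 3 normalized counts and Cox6b2 at most 2 in any library, and Cox7b2, Cox8b and Cox8c were at 0 in all. Ndufa4l2, a paralogue of Ndufa4 known to respond to low oxygen, had at most 4. Their counterparts Cox4i1, Cox6b1 and Cox8a had mean levels of 21010, 6640 and 11260 per kilobase in Wt cells. Cox4i1 and Cox6b1 fell in Pkd2-/- cells (−0.20, limma adjusted p = 0.0266, and −0.24, adjusted p = 0.0093), the former a call lost in 7 of 25 alternative settings. Cox7b stood at 0.04 in Pkd1-/- and −0.15 in Pkd2-/- cells, neither called. Cox7a2l had 5426, 6067, 5647 and 5519 normalized counts in Wt and 4681, 4566, 4827 and 4292 in Pkd2-/- dishes, without overlap (−0.30, limma adjusted p = 4.17e-04), and stood at −0.02 in Pkd1-/- cells (adjusted p = 0.855).

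Transcript length went with the changes in Pkd2-/- cells. Of 18 nuclear members with a principal transcript of up to 600 bases, 12 fell and none rose (median −0.24). Of 31 with over 600 and up to 1000 bases 16 fell and 4 rose (−0.16), of 31 with over 1000 and up to 2000 bases 9 fell and 6 rose (−0.09), and of 10 longer ones 2 fell and 2 rose (−0.03). Other protein-coding genes whose mean reached 10 had medians of −0.08, −0.13, −0.09 and 0.02 in these classes, with 27.1%, 38.5%, 36.6% and 28.4% that fell. Centring on length and GC content, added after seeing the data, moved the median of the nuclear members from −0.16 to −0.10, with 41 that fell and 17 that rose.

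**Figure D5:**
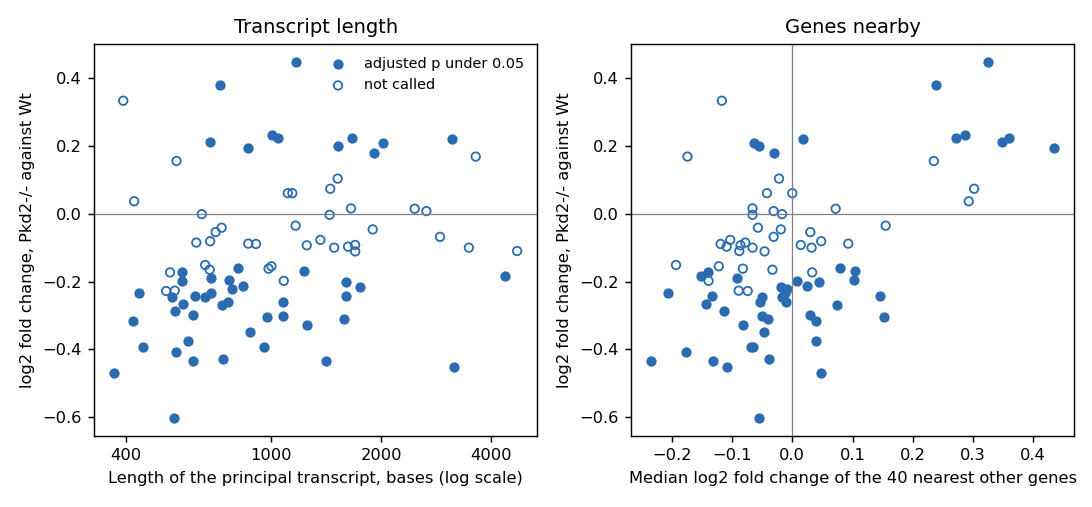
log2 fold change of nuclear members in Pkd2-/- against Wt cells, plotted against the length of the principal transcript (left, log scale) and against the median log2 fold change of the 40 nearest other genes (right), filled where called. Short transcripts hold most of the falls, and the members whose neighbours had medians above 0.2 lie above 0.

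Across the 88 nuclear members whose mean reached 10, the fold change and the median of the 40 nearest other genes had a Pearson correlation of 0.48 in Pkd1-/-, 0.49 in Pkd2-/- and 0.51 between the mutants. Members on the same chromosome share neighbours, so that these are descriptions. Against log2 transcript length the correlations were −0.16, 0.28 and 0.39.

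Directly compared, Pkd2-/- cells had lower levels than Pkd1-/- cells for 43 of 90 nuclear members (47.8%) and higher levels for 2 (2.22%), where 24.3% of all genes were lower and 21.9% higher (46.3% called). Atp5j2 led, followed by Atp5k (−0.73, SE 0.12, limma adjusted p = 4.64e-05), Cox7a1 (−0.57), Cox6a1 (−0.55, adjusted p = 1.85e-06), Cox6c (−0.54) and Uqcrh (−0.54). Uqcrh, the hinge protein of complex III, had 3693, 3195, 3297 and 2906 normalized counts in Pkd1-/- and 2372, 2291, 2473 and 1888 in Pkd2-/- dishes, and 3063, 3221, 2981 and 2680 in Wt. The 2 higher genes were Atp5c1 (0.38, adjusted p = 6.15e-05) and the low gene Cox6a2, which reached the mean limit only through the Pkd2-/- dishes. Without Pkd1-/- dish 1 there were 5 higher genes, and without Pkd2-/- dish 4 there were 7. Since the comparisons share libraries, they are set side by side and their overlap was not tested.

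Genes that control the chain went in both directions. Ppargc1a, the coactivator PGC-1alpha known as a driver of mitochondrial biogenesis, had 902, 716, 795 and 971 normalized counts in Wt, 624, 653, 670 and 666 in Pkd1-/- and 542, 580, 501 and 643 in Pkd2-/- dishes, all below Wt. It fell by 0.36 on the log2 scale (SE 0.09, limma adjusted p = 0.00444) in Pkd1-/- and by 0.57 (SE 0.09, adjusted p = 3.36e-05) in Pkd2-/- cells. Its relatives Ppargc1b and Pprc1 went the other way in Pkd2-/- cells, at 1.23 (adjusted p = 9.71e-05) and 0.67 (adjusted p = 1.41e-08). Ppargc1b was at a low level, with means of 29.5 normalized counts in Wt and 68.75 in Pkd2-/- cells. Pprc1 had 2140, 2164, 2251 and 2317 in Wt, 2410, 2787, 2476 and 2581 in Pkd1-/- (0.21, adjusted p = 0.00943) and 3638, 3413, 3287 and 3827 in Pkd2-/- dishes.

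Of 16 regulators 3 rose and 3 fell in Pkd1-/- cells, and 7 rose and 2 fell in Pkd2-/- cells, or 37.5% and 56.2% called against 27.1% and 42.3% of all genes. Nfe2l2, the antioxidant response factor, had 2303, 2253, 2178 and 2308 normalized counts in Wt, 1994, 1889, 2062 and 1907 in Pkd1-/- and 4166, 4354, 4247 and 4402 in Pkd2-/- dishes, so that it fell in the former by 0.20 on the log2 scale (limma adjusted p = 0.00177) and rose in the latter by 0.92 (adjusted p = 5.35e-12). Gabpa, the DNA-binding subunit of GABP, likewise stood at −0.22 (adjusted p = 0.00726) and 0.24 (adjusted p = 0.00199). Myc (0.74), Esrra (0.37) and Yy1 (0.24) rose in Pkd2-/- cells, and Hif1a fell by 0.22 (adjusted p = 0.0018). Yy1 also rose in Pkd1-/- cells (0.19), and Epas1 rose there from a low level (11 to 22 normalized counts in Wt, 48 to 74 in Pkd1-/- dishes). Nrf1, Gabpb1, Tfam, Sirt1, Sirt3 and Ppara passed the test against Wt in neither mutant. Tfam, which packages and transcribes mitochondrial DNA, was at −0.06 (adjusted p = 0.373) and 0.00 (adjusted p = 1).

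Of 34 tested genes of mitochondrial transcription, RNA processing and DNA maintenance, 3 rose and 6 fell in Pkd1-/- cells, and 9 rose and 8 fell in Pkd2-/- cells. The shares called, 26.5% and 50%, lie near the 27.1% and 42.3% of all genes. Trmt10c, a subunit of the enzyme that cuts mitochondrial transfer RNAs out of the precursor, had 1165, 1092, 1126 and 1087 normalized counts in Wt, 849, 805, 759 and 802 in Pkd1-/- and 1406, 1560, 1522 and 1511 in Pkd2-/- dishes. It moved in opposite directions (−0.48, limma adjusted p = 1.62e-06, and 0.42, adjusted p = 3.33e-06). Ptcd1, which lies on chromosome 5 near Atp5j2, had 680, 700, 758 and 675 in Wt, 960, 1104, 1023 and 1028 in Pkd1-/- (0.55, adjusted p = 1.09e-06) and 697, 660, 669 and 650 in Pkd2-/- dishes. Mterf2, a relative of the termination factor, fell in both (−0.43 and −0.48). The low-level near-copies Mterf1a and Mterf1b had the lowest values of the list, −0.71 in Pkd1-/- and −1.20 in Pkd2-/- cells.

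Of 36 tested factors for complexes II to V and cytochrome c, 8 rose and 5 fell in Pkd1-/- cells, and 10 rose and 10 fell in Pkd2-/- cells, or 36.1% and 55.6% called where 27.1% and 42.3% of all genes were. Cox19, a copper-handling factor of complex IV, had 891, 972, 885 and 842 normalized counts in Wt and 1621, 1488, 1592 and 1481 in Pkd1-/- dishes (0.78, SE 0.06, limma adjusted p = 6.78e-09), which do not overlap. Sdhaf4, which helps to mature Sdha, had 580, 526, 549 and 522 in Wt and 315, 331, 263 and 306 in Pkd2-/- dishes (−0.84, SE 0.09, adjusted p = 2.35e-07). Higd1a, a hypoxia-inducible partner of complex IV, rose in Pkd1-/- (0.42) and fell in Pkd2-/- cells (−0.58). Of 10 further complex I factors 6 fell and 1 rose in Pkd2-/- cells (60% and 10%, against 22.3% and 20% of all genes), with Dmac1 at −0.69 (adjusted p = 8.25e-06) and Nubpl at −0.43.

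The mitochondrial ribosome, which makes the 13 mitochondrially encoded proteins, had 10 of 78 genes that rose and 6 that fell in Pkd1-/- cells, and 15 that rose and 16 that fell in Pkd2-/- cells (medians 0.08 and −0.03). Its shares called were 20.5% and 39.7%, against 27.1% and 42.3% of all genes, so that the latter is about the background. Mrps2 and Mrps5, both of the small subunit, led the rises in Pkd2-/- cells (0.57 and 0.56), and Mrps25 (−0.51) led the falls. The cytosolic ribosome, a set of short and abundant transcripts like those of the chain, had 15 of 84 genes that rose and 3 that fell in Pkd2-/- cells (median 0.09), or 21.4% called. The nuclear members of the chain had 39 of 90 that fell, and the difference between the lists was not tested.

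At the entry of fuel, 26 genes of the citric acid cycle and of pyruvate dehydrogenase had 8 that rose and 2 that fell in Pkd1-/- cells, and 11 that rose and 8 that fell in Pkd2-/- cells. That is 38.5% and 73.1% called, against 27.1% and 42.3% of all genes. Pcx, pyruvate carboxylase, had 1094, 1220, 1202 and 1150 normalized counts in Wt, 1608, 1655, 1575 and 1494 in Pkd1-/- (0.44, limma adjusted p = 1.17e-05) and 2618, 2299, 2246 and 2230 in Pkd2-/- dishes (1.01, adjusted p = 7.75e-11). Pdha1, the catalytic subunit of pyruvate dehydrogenase, rose by 0.78 in Pkd2-/- cells, while the kinases that switch this enzyme off, Pdk2 and Pdk3, fell there (−0.43 and −0.50), as did Pdk4, from 15 to 26 normalized counts in Wt to 5 to 10 in Pkd2-/- dishes. In Pkd1-/- cells Pdk1 (0.46) and Pdk3 (0.37) rose and Pdk2 fell by 0.21 on the log2 scale.

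Of 26 tested genes for protein import and carriers, 1 rose and 2 fell in Pkd1-/- cells, and 4 rose and 6 fell in Pkd2-/- cells. The shares called were 11.5% and 38.5%, below the 27.1% and near the 42.3% of all genes. The single rise in Pkd1-/- cells was Slc25a5 (0.43, limma adjusted p = 1.47e-05), an ATP/ADP carrier. Ucp2, an uncoupling protein family member, fell in Pkd2-/- cells from 5863, 6050, 5825 and 6042 normalized counts in Wt to 4478, 4289, 4161 and 4065 (−0.49, adjusted p = 4.02e-08). Atpif1, the inhibitor of ATP synthase, stood at −0.02 in Pkd1-/- cells (adjusted p = 0.857) and at −0.17 in Pkd2-/- cells (adjusted p = 0.0347), a call lost in 8 of 25 alternative settings.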

How the data were processed

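RNA of 12 dishes of mIMCD3 cells was sequenced. Per the study's methods, the authors trimmed reads with Trim Galore, checked them with FastQC, aligned them to mm10 with HISAT2, counted genes with HTSeq and normalized with DESeq2. Strand setting, treatment of reads with several matches and annotation release are not given in the sources used here. The deposited values are a score, counts divided by size factors and rounded by the authors, so they are not reads, and depth is unknown. Columns of samples not used here numbered 0.

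Gene names came from GENCODE M21 (47223 of 47642 identifiers). log2(value + 1) of the 18552 genes whose mean reached 1 was fitted with limma 3.58.1 (R 4.3.3, trended variance, all 12 libraries), after a test on simulated data, and p-values were adjusted by Benjamini-Hochberg per comparison. A count test, planned only in case the values were raw counts, was not used, since they are not. Other steps ran in Python 3.11.15 with pandas 2.3.3.

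The members and lists were chosen with earlier results of these data known. Named with values were the mitochondrial genes, isoform pairs, complex II, Cyc1 and Cycs, Atpif1, the regulators, the 6 largest non-overlapping rises and falls per comparison, and up to 3 each way per list. Others (Atp5b, Atp5a1, Atp5g1, Atp5g2, Uqcrq and the Ndufaf genes) were named after their values were seen. Alternatives were pseudocount, filter, scaling, replicate block, fewer genotypes, no variance trend, single dishes left out and, added after seeing the data, centring by chromosome or by length and GC content and leaving out dish 4.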

Additional observations from a re-analysis of the deposited data

Results flagged for a closer look

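In 9 of 144 groups of 4 dishes, among the genes described with values, a single dish stood apart from the other three by Dixon's ratio (its gap to the nearest dish over the whole range, above the 95% critical value for 4 values). Chance flags about 5 percent of groups.

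Of these, 5 were mitochondrial genes in Pkd1-/- cells. Dish 4 was highest for mt-Nd4 (37257 normalized counts against 24443 to 25557, ratio 0.913), mt-Co3 (1107 against 242 to 356, ratio 0.868), mt-Cytb (154313 against 96919 to 106413, ratio 0.835) and mt-Nd1 (93429 against 61461 to 66905, ratio 0.83). Dish 2 was lowest for mt-Nd3, with 44 against 62 to 64 (ratio 0.9).

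The other 4 were nuclear members. In Pkd1-/- cells dish 1 was highest for Cox8a (8062 against 7015 to 7069, ratio 0.948) and for Sdhd (4927 against 4280 to 4345, ratio 0.9). Atp5k was lowest in Pkd2-/- dish 4 (708 against 985 to 1028, ratio 0.866), and Ndufa10 in Wt dish 4 (3119 against 3639 to 3732, ratio 0.848).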

How the results depend on the processing

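Counts moved by over 1.5 times as follows, and where no cause is given it was not tested. In Pkd1-/- against Wt, 17 nuclear members rose with the replicate block, 14 with only the 2 genotypes, 16 with length and GC centred and 14 without dish 4 of every genotype, and 8 to 14 with single dishes left out. Fewer or more fell: 3 with equal upper quartiles, equal totals, no variance trend or chromosome centring, 12 with length and GC centred, and 2 to 8 with single dishes left out. Mitochondrial genes that fell numbered 0 with no filter or no variance trend, 3 with the block, 2 without dish 4, and 0 to 4 with single dishes left out. In Pkd2-/- against Wt, 3 nuclear members rose with equal nuclear totals or equal totals and 7 with chromosome centring, and 24 to 41 fell with single dishes left out; 1 mitochondrial gene fell with equal nuclear totals, equal totals or only the 2 genotypes, 2 with the block or without dish 4, and 0 to 1 with single dishes left out. Without a variance trend 26 nuclear members fell and 9 rose. In Pkd2-/- against Pkd1-/-, 1 nuclear member rose with a minimum mean of 10, 6 with the block, 14 with length and GC centred, 5 without dish 4, and 2 to 7 with single dishes left out; 4 mitochondrial genes rose with the block, 2 with only the 2 genotypes and 0 to 1 with single dishes left out. At an absolute log2 fold change of at least 1, all genes called fell to 1158, 1785 and 2182, and nuclear members to 0 higher and 0 lower, 1 and 0, and 1 and 1, and mitochondrial genes to 0.

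Reversed values were those of Ndufs8 (−0.034) and Ndufv1 (−0.043) in Pkd2-/- against Wt with chromosome centring, and of Ndufs8 in Pkd2-/- against Pkd1-/- with length and GC centred (0.11, limma adjusted p = 0.00994). Equal totals moved the median of all genes to −0.07 in Pkd2-/- against Wt and −0.08 against Pkd1-/-.

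The pairing of same-numbered dishes was not taken as given, since the labels do not state it and their deviations correlated at −0.07 to 0.20, over 0.1 in 2 of 12 pairs. Both were pairs of dish 4 (0.20 for Wt with Pkd2-/-, 0.17 for the mutants, and 0.09 for Wt with Pkd1-/-), and shared handling of dish 4 was not tested. In all, 9 of 24 best matches were with the own number. The replicate block gave 13 nuclear members that rose and 43 that fell in Pkd2-/- against Wt. Depth is unknown, so limits for values at 0 cannot be given.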
